A study of Bos taurus with 6 samples.

Results

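The Notch pathway was followed through 10 genes in cultured bovine rumen cells, namely the receptors *NOTCH1*, *NOTCH2*, *NOTCH3* and *NOTCH4*, the ligands *JAG1*, *JAG2*, *DLL1* and *DLL4*, and the target genes *HES1* and *HEY1*. They were taken by gene name from the 32183 genes listed for each culture, and each name occurred on a single entry. The cultures were rumen epithelial primary cells (REPC), grown from the rumen of 1 Holstein bull calf that was 2 weeks old and had been fed milk replacer only. RNA was sequenced from 3 cultures that received 5 mM butyrate in the medium for 24 h and from 3 control cultures without butyrate. Butyrate is a short-chain fatty acid from rumen fermentation and an inhibitor of histone deacetylases. All cultures came from the same animal, so every p-value below measures the spread between cultures and not between animals.

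Notch receptors are single-pass membrane proteins that are activated by ligands on the surface of a neighbouring cell. Binding of a Jagged or Delta-like ligand leads to cleavage by an ADAM protease and then by the gamma-secretase complex, which frees the intracellular part of the receptor to enter the nucleus. There it joins the DNA-binding protein RBPJ and a Mastermind coactivator, and genes of the HES and HEY families of transcriptional repressors are among the best known targets. In stratified epithelia, to which the rumen lining belongs, Notch signalling is known for its part in the step from basal to differentiating cells.

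Expression is given as FPKM, the number of fragments per kilobase of transcript and per library size, which is already divided by transcript length, so levels of different genes can be compared. Per culture, the FPKM of all genes added up to 678035 to 681912 in the control group and 619401 to 629037 in the butyrate group. Fragment counts were not part of the tables. From the deposited confidence bounds, a culture had roughly 5756609 to 6186809 effective fragments. Of the 8 listed markers of epithelium, 6 rose and 1 fell, next to 32.5% and 25.9% of all tested genes. The call of *TP63*, which rose, was lost under 8 alternatives. That of *KRT5*, which fell, was lost under 8 and changed sign under 1 more. The 8 markers had a summed FPKM of 2016 to 2126 in control and 3253 to 3304 after butyrate. Their levels in control ran from 0.540 ± 0.174 (SD, n = 3) for *EPCAM* and 8.06 ± 0.879 (SD, n = 3) for *TP63* to 1380 ± 61.4 (SD, n = 3) for *KRT8*. Of the 9 listed genes typical of fibroblasts, some were abundant too, mainly *VIM* and *COL1A1* with means of 2464 and 1149 in control. The list had a summed FPKM of 4356 to 4512 in control and 6374 to 6715 after butyrate. Others of it were low in control, with means of 6.90 for *DCN*, 0.306 for *PDGFRA*, 0.149 for *LUM* and 0.0203 for *PDGFRB*. All 8 genes of the fibroblast list that were tested rose, next to the same 32.5% of all tested genes. The call of *LUM* was lost under 6 alternatives, that of *PDGFRA* by quantile normalization and that of *COL3A1* without the trend. The part of either list in the results below was not tested. In such bulk RNA, fewer cells of a type and less RNA per cell cannot be told apart.

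The 10 genes spanned a wide range of levels. In control, *HES1* was highest with a mean FPKM of 70.5 ± 1.19 (SD, n = 3), above 89.4% of the 15813 genes that entered the tests. *JAG1* followed at 62.2 ± 2.32 (SD, n = 3), then *HEY1*, *NOTCH2* and *NOTCH1*. Each of these was separated from the next by all 3 control cultures. *DLL1*, *JAG2* and *NOTCH3* came after them with means of 1.77, 1.58 and 1.45, and neighbours in that order overlapped between cultures. *NOTCH4* was near an FPKM of 0.516, and *DLL4* was listed at 0 in all 3 control cultures. After butyrate, *JAG1* and *HES1* overlapped at the top, and *JAG2*, *NOTCH1* and *NOTCH3* formed an order in which neighbours overlapped.

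**Figure D1:**
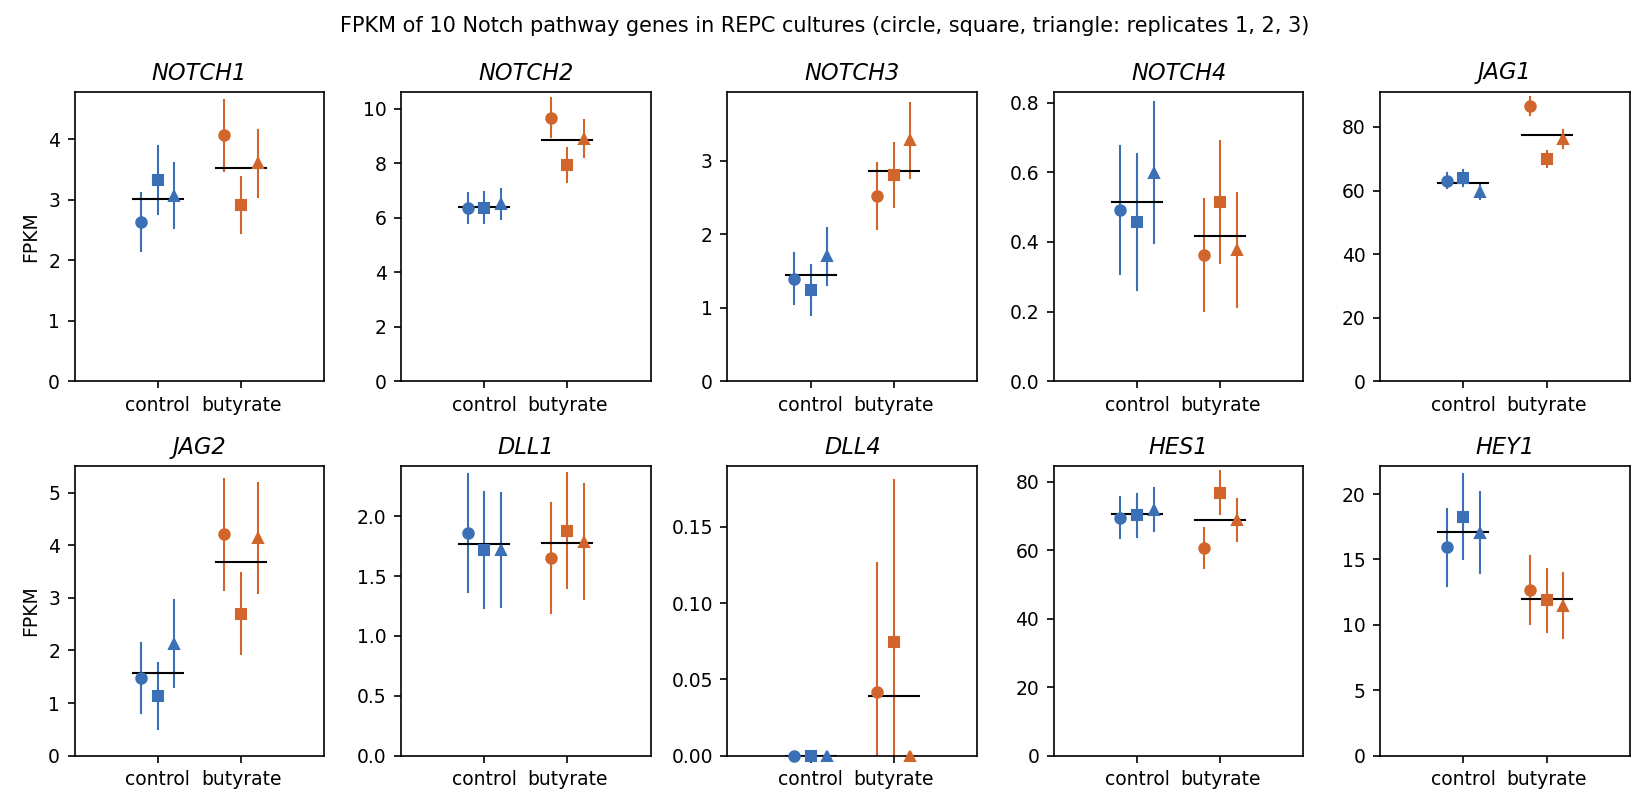
Each panel shows the FPKM of 1 gene (vertical axis, linear from 0, scaled per gene) in the 3 control and 3 butyrate cultures, with the deposited confidence bounds as vertical bars and the group mean as a horizontal line. The groups do not overlap in *NOTCH2*, *NOTCH3*, *JAG1*, *JAG2* and *HEY1*, and they overlap in the other 5 genes.

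Butyrate and control were compared by limma on log2(FPKM + 0.1) over all 15813 genes whose mean FPKM reached 0.1, and a gene was called with a Benjamini-Hochberg adjusted p under 0.05. Of the 10 genes, 9 were tested, and *DLL4* was below the minimum. *NOTCH2*, *NOTCH3*, *JAG1* and *JAG2* rose and *HEY1* fell, while *NOTCH1*, *NOTCH4*, *DLL1* and *HES1* were not called. Of all tested genes, 32.5% were called higher and 25.9% lower, so 4 of 9 called higher (44.4%) and 1 of 9 called lower (11.1%) stand beside a background in which calls were common. Likewise, the groups did not overlap in 36.1% of all tested genes with higher and in 28.9% with lower values after butyrate. None of the 9 genes was a differentially expressed gene (DEG) by the stricter rule of the study's methods, a Bonferroni-corrected p under 0.05 with a log2 fold change beyond 2, which limma called for 2.46% of all genes upwards and 1.51% downwards. At an unadjusted p under 0.05, 5 of the 9 (55.6%) passed, next to 62.7% of all tested genes.

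Among the receptors, *NOTCH2* was the most abundant. It lies on chromosome 3 from 23306900 to 23481480 by the FPKM tables' own coordinates, for which the submitters' processing notes name the build UMD3.1. Its FPKM was 6.36, 6.37 and 6.49 in the control cultures and 9.66, 7.93 and 8.90 in the butyrate cultures, with values here and below in the order of replicates 1 to 3. Every butyrate culture was above every control culture. The log2 fold change was 0.45 (standard error, SE, 0.11, limma, adjusted p = 0.00627), which corresponds to means of 6.41 ± 0.0772 and 8.83 ± 0.867 (SD, n = 3 each). The spread of the butyrate cultures, 9.82% of their mean, was larger than the 3.80% that the confidence bounds imply for the sampling of fragments.

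*NOTCH3*, best known as a receptor of vascular smooth muscle and pericytes, changed most among the receptors. It lies on chromosome 7 from 8930787 to 8971370. Its FPKM was 1.40, 1.24 and 1.70 in control and 2.52, 2.80 and 3.28 after butyrate. The lowest butyrate culture was thus well above the highest control culture. The ratio of means was 1.98 and the log2 fold change 0.94 (SE 0.19, limma, adjusted p = 0.00303), and 31.5% of all tested genes had a larger absolute log2 fold change. By quantile normalization the log2 fold change was 0.61. The smooth muscle and pericyte genes of the marker list did not share that direction as a whole. *ACTA2* fell from a mean FPKM of 2752 to 1006 and *CNN1* from 805 to 216, whereas *CSPG4*, a pericyte marker, rose from 12.5 to 22.6. *RGS5*, another one, was below an FPKM of 0.1 in all cultures. Also on this list, *MYH11* fell from 0.662 to 0.0762 and *DES* rose from 0.367 to 1.60. After butyrate *MYH11* was below the minimum for testing. It thus entered the test only through the control group and could only be called lower. Of the 5 tested genes of this list of 6, 2 rose and 3 fell (40.0% and 60.0%, next to 32.5% and 25.9% of all tested genes). The summed FPKM, nearly all of it *ACTA2* and *CNN1*, was between 3449 and 3639 in control and between 1051 and 1416 after butyrate. Whether the cultures held smooth muscle cells or pericytes, and what part their RNA had in the change of *NOTCH3*, was not tested.

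*NOTCH1*, the main receptor of keratinocytes in skin, lies on chromosome 11 from 103985233 to 104030946. Its FPKM was 2.63, 3.33 and 3.07 in control and 4.06, 2.92 and 3.60 after butyrate. Butyrate replicate 2 lay within the control range, and the groups overlapped. The log2 fold change of 0.22, with a 95% interval from -0.18 to 0.61, did not pass (limma, adjusted p = 0.311). The interval allows any change between a ratio of 0.883 and one of 1.53.

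*NOTCH4*, a receptor mostly of endothelial cells, was the least abundant receptor. It lies on chromosome 23 from 26973060 to 27002437. Its FPKM was 0.492, 0.458 and 0.598 in control and 0.363, 0.514 and 0.378 after butyrate, and the groups overlapped. The log2 fold change was -0.25 with a 95% interval from -0.93 to 0.42 (limma, adjusted p = 0.484). Only 20.4 to 35.0 effective fragments per culture stand behind these values, and the entry shares 1846 bases of its span with *PBX2*, whose mean FPKM was 5.46 in control and 6.30 after butyrate, so reads could be assigned to either gene. Of the 8 listed endothelial markers, *CDH5* was listed at 0 in all cultures, and *KDR* and *TEK* stayed below an FPKM of 0.1. *CLDN5* and *TIE1* were below the minimum for testing. The 3 that were tested, *PECAM1*, *VWF* and *ESAM*, rose, next to 32.5% of all tested genes. *ESAM* was listed at 0 in all control cultures and at 3.14, 4.64 and 1.97 after butyrate. It thus entered the test only through the butyrate group and could only be called higher. The list of 8 summed to an FPKM between 1.97 and 2.16 in control and between 9.88 and 12.0 after butyrate.

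Summed over the 4 receptors, the FPKM was 10.9, 11.4 and 11.9 in control and 16.6, 14.2 and 16.2 after butyrate. *NOTCH2* held 56.4% ± 1.90 (SD, n = 3) in control and 56.4% ± 1.60 (SD, n = 3) after butyrate, with overlap (exact permutation test, p = 0.9). *NOTCH3* made up 12.8%, 10.9% and 14.4% of the sum in control and 15.2%, 19.8% and 20.3% after butyrate. The shares of *NOTCH4* were 4.52%, 4.02% and 5.04% against 2.18%, 3.63% and 2.34%. For both of these the groups did not overlap (two-sided exact permutation test, p = 0.1, and no smaller p can arise from 3 against 3 cultures). At the lower confidence bounds the shares of *NOTCH4* overlapped (exact permutation test, p = 0.2). The share of *NOTCH1*, 26.4% ± 2.56 (SD, n = 3) in control and 22.5% ± 1.94 (SD, n = 3) after butyrate, overlapped between the groups (exact permutation test, p = 0.2).

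**Figure D2:**
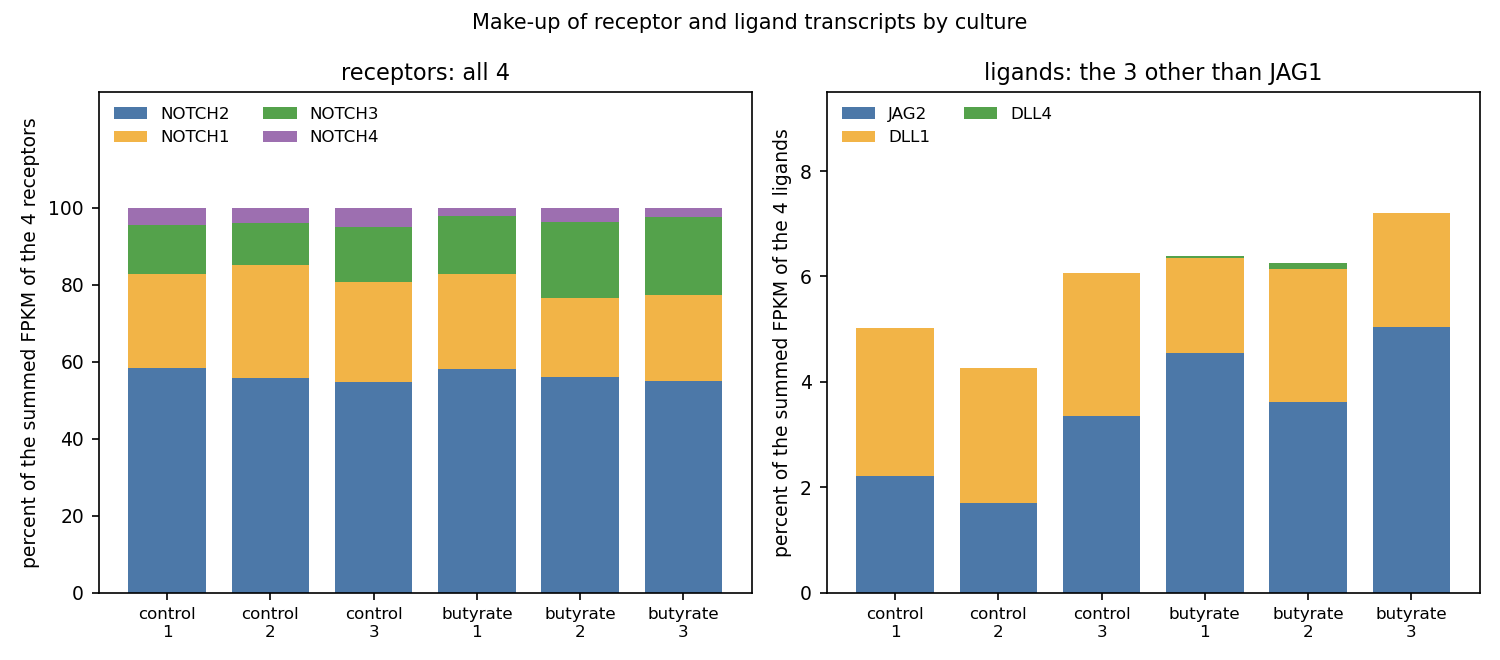
Stacked bars give, for each culture, the percent of the summed receptor FPKM held by each receptor (left, from 0 to 100) and the percent of the summed ligand FPKM held by *JAG2*, *DLL1* and *DLL4* (right, with the larger part taken by *JAG1* left out). *NOTCH3* takes 15.2% to 20.3% of the receptor sum after butyrate against 10.9% to 14.4% in control, and *JAG2* takes 3.62% to 5.03% of the ligand sum against 1.70% to 3.36%.

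Among the ligands, *JAG1* made up nearly all of the transcripts, with 94.9% ± 0.906 (SD, n = 3) of the summed FPKM of the 4 ligands in control. Jagged1 is a ligand of broad use in epithelia and mesenchyme. The gene lies on chromosome 13 from 3832285 to 3876681. Its FPKM was 63.1, 64.0 and 59.6 in control and 86.5, 69.8 and 76.2 after butyrate, so every butyrate culture was higher. The change was small, with a ratio of means of 1.25 and a log2 fold change of 0.31 (SE 0.08, limma, adjusted p = 0.009). It was 0.21 above the median log2 fold change of all tested genes, which was 0.10. The SD of the butyrate cultures was 10.9% of their mean, whereas the confidence bounds imply 1.74% from the sampling of fragments. The entry of an unnamed locus, LOC107133024, lies within the span of *JAG1*, with a mean FPKM of 0.181 in control and 0 in all butyrate cultures.

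*JAG2*, the other Jagged ligand, showed the largest change of the 9 tested genes. It lies on chromosome 21 from 71144418 to 71156690. Its FPKM was 1.48, 1.13 and 2.13 in control and 4.21, 2.70 and 4.13 after butyrate. The groups did not overlap, although control replicate 3 and butyrate replicate 2 came close to each other. The ratio of means was 2.33 and the log2 fold change 1.19 (SE 0.27, limma, adjusted p = 0.00482). Between 13.3 and 63.5 effective fragments per culture stand behind these values. Expressed as log2(*JAG1*/*JAG2*), the excess of *JAG1* was 5.42, 5.82 and 4.80 in control and 4.36, 4.69 and 4.20 after butyrate, without overlap (exact permutation test, p = 0.1, the smallest possible).

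The Delta-like ligands were low. *DLL1*, on chromosome 9 from 105506438 to 105517163, had an FPKM of 1.86, 1.72 and 1.72 in control and 1.65, 1.88 and 1.79 after butyrate. The groups overlapped almost completely, and the log2 fold change was 0.01 with a 95% interval from -0.39 to 0.40 (limma, adjusted p = 0.98). Its share of the ligand sum nevertheless went from 2.69% ± 0.115 to 2.16% ± 0.367 (SD, n = 3 each) without overlap (exact permutation test, p = 0.1), while the summed FPKM of the ligands went from 65.6 ± 1.86 to 83.0 ± 9.02 (SD, n = 3 each). At the lower confidence bounds the shares of *DLL1* overlapped (exact permutation test, p = 0.2), and without butyrate replicate 1 their difference was -0.341 percentage points in place of -0.528. *DLL4*, a ligand of sprouting endothelium, on chromosome 10 from 36577284 to 36586360, was listed at 0 in the control cultures and at 0.0420, 0.0748 and 0 in butyrate replicates 1 to 3. These values correspond to at most 1.99 effective fragments, so no difference was detectable at this depth. *DLL3*, a ligand-like protein that does not activate receptors on neighbouring cells, was more abundant than *DLL1* in every culture and was not called, with a mean FPKM of 7.73 in control and 8.08 after butyrate (limma, adjusted p = 0.645). *DLK1*, a non-canonical ligand, was listed at 0 in all 6 cultures.

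**Figure D3:**
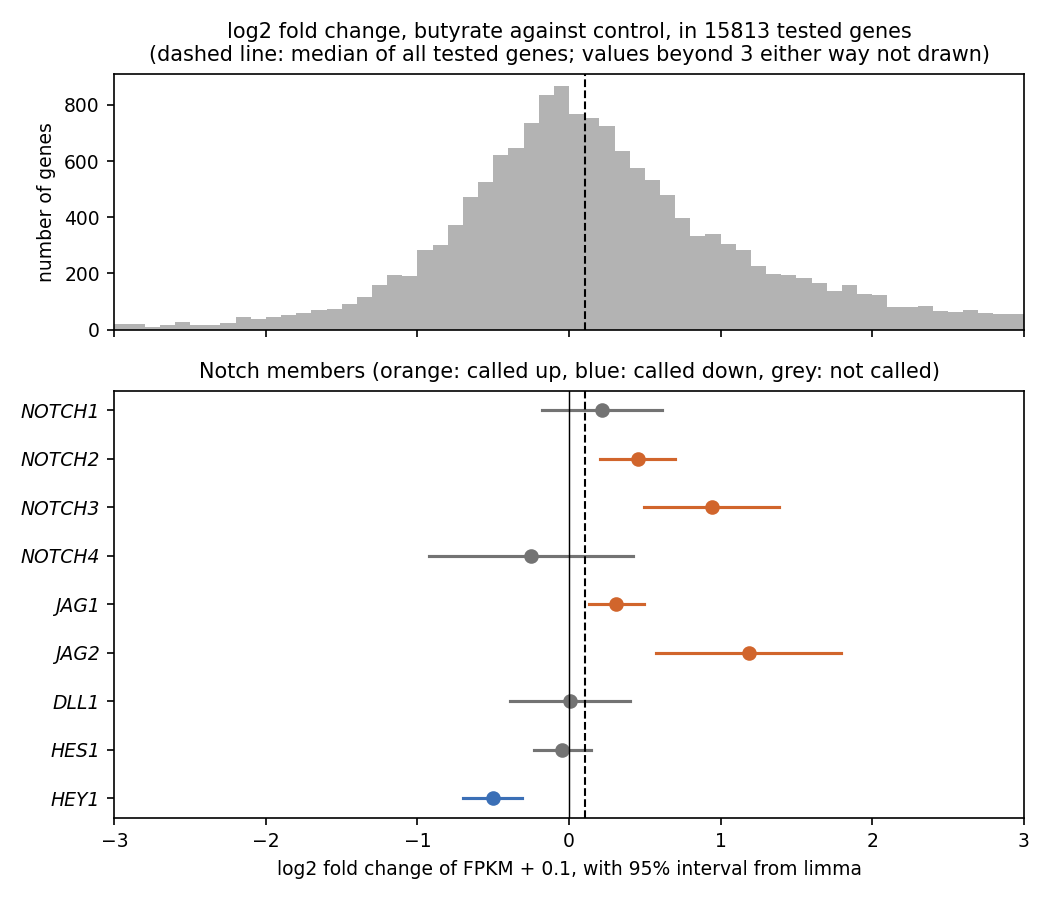
The upper panel is a histogram of the log2 fold change (butyrate against control, on log2(FPKM + 0.1)) of the 15813 tested genes, and the lower panel gives the 9 tested Notch genes with their 95% intervals. The called genes lie between -0.50 for *HEY1* and 1.19 for *JAG2*, inside the bulk of the distribution, whose median is 0.10.

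*HES1* and *HEY1* are the targets of the set. Both encode basic helix-loop-helix repressors. *HES1*, on chromosome 1 from 73974239 to 73976720, had an FPKM of 69.5, 70.2 and 71.8 in control and 60.6, 76.7 and 68.8 after butyrate. The control cultures lay inside the range of the butyrate cultures. The log2 fold change was -0.04 (SE 0.08, limma, adjusted p = 0.673), and the 95% interval from -0.23 to 0.14 limits a change to ratios between 0.853 and 1.10. *HES1* was therefore estimated with the smallest interval but that of *JAG1* among the 9 genes.

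*HEY1*, on chromosome 14 from 45126100 to 45128997, had an FPKM of 15.9, 18.2 and 17.0 in control and 12.7, 11.9 and 11.5 after butyrate. Every butyrate culture was below every control culture. The mean went from 17.1 ± 1.16 to 12.0 ± 0.613 (SD, n = 3 each), a ratio of 0.703, and the log2 fold change was -0.50 (SE 0.09, limma, adjusted p = 0.00102). Of all tested genes, 21.3% had a lower log2 fold change. The log2 ratio of *HEY1* to *HES1*, a comparison chosen after the values were seen, was -2.13, -1.94 and -2.08 in control and -2.26, -2.69 and -2.59 after butyrate. These groups did not overlap (exact permutation test, p = 0.1, the smallest possible).

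The other genes of the HES and HEY families, with *NRARP*, were read beside them. Of the 9 listed, 6 were tested, 4 rose (66.7%) and none fell, next to 32.5% and 25.9% of all genes. *HES6*, which opposes *HES1* in neural cells, had an FPKM of 0.166, 0.713 and 0.523 in control and 4.20, 6.84 and 2.40 after butyrate, with a log2 fold change of 3.04 (SE 0.48, limma, adjusted p = 0.000691). *HES4* went from a mean of 0.204 ± 0.0879 to 1.17 ± 0.247 (SD, n = 3 each), with a log2 fold change of 2.09 (limma, adjusted p = 0.000819). Both started from very low control levels, and over the alternatives their log2 fold changes were between 1.84 and 3.41 for *HES6* and between 0.85 and 2.54 for *HES4*. *HES2*, chosen for mention after its values were seen, was the most abundant of these genes and rose from 8.10 ± 0.554 to 14.2 ± 0.606 (SD, n = 3 each). *NRARP*, a Notch target that dampens Notch signalling, had an FPKM of 1.46, 1.54 and 0.763 in control and 2.08, 1.85 and 2.82 after butyrate. Its call (log2 fold change 0.83, limma, adjusted p = 0.0384) was lost without any of the cultures except control replicate 2, with log2 fold changes then between 0.53 and 0.96, as well as with the replicate block (limma, adjusted p = 0.0696), without the filter, without the trend and by quantile normalization (log2 fold change 0.44, limma, adjusted p = 0.219). *HEY2* and *HEYL* were not called, *HES5* and *HES7* were below the minimum and *HES3* was listed at 0 in all cultures.

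**Figure D4:**
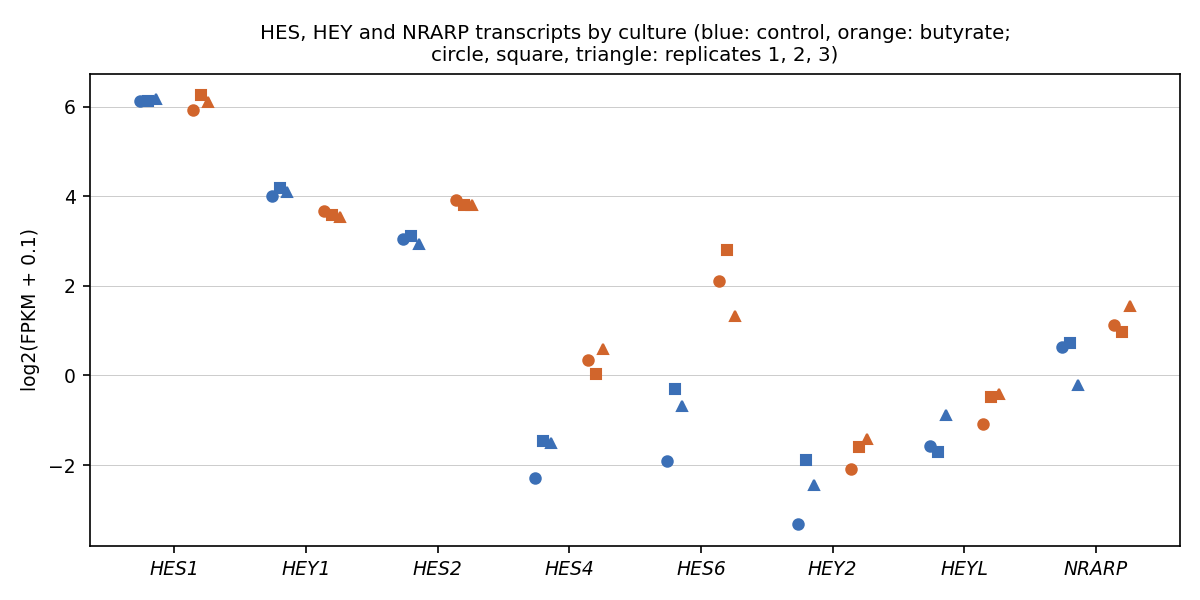
Points show log2(FPKM + 0.1) of *HES1*, *HEY1* and the 6 other tested genes of their list, *NRARP* included, in each of the 3 control and 3 butyrate cultures. *HES1* overlaps between the groups and *HEY1* is lower after butyrate, whereas *HES2*, *HES4*, *HES6* and *NRARP* are higher in every butyrate culture.

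The genes of receptor cleavage and glycosylation, ligand uptake, receptor turnover and nuclear activity were read from lists of 54 genes, of which 51 were tested and 15 rose and 8 fell (29.4% and 15.7%, next to 32.5% and 25.9% of all genes). Their median log2 fold change was 0.15, next to 0.10 over all genes. Of 9 glycosyltransferases that modify the receptors, 5 rose and 1 fell (55.6% and 11.1%, next to 32.5% and 25.9% of all genes). *MFNG*, a Fringe enzyme that extends O-fucose on Notch and changes its response to Jagged and Delta-like ligands, had an FPKM of 39.2, 42.9 and 39.1 in control and 110.0, 107.5 and 114.0 after butyrate, a log2 fold change of 1.45 (SE 0.06, limma, adjusted p = 2.0e-07). *POFUT1*, which adds the O-fucose, rose from 16.9 ± 0.404 to 30.5 ± 0.625 (SD, n = 3 each), and *GXYLT2*, a xylosyltransferase, from 0.676 to 2.05. On the log2 scale *GXYLT2* changed by 1.49, and by 0.87 with a pseudocount of 1. The other risers were *LFNG*, from 43.4 ± 2.10 to 67.2 ± 3.76 (SD, n = 3 each), and *XXYLT1*, while *EOGT* fell and *RFNG* was not called (log2 fold change -0.02, limma, adjusted p = 0.855). *LFNG*, *XXYLT1*, *EOGT* and *RFNG* were named after their values were seen.

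Of the 9 genes of receptor cleavage, 5 rose and 1 fell (55.6% and 11.1%, next to 32.5% and 25.9% of all genes). *APH1B*, a subunit of gamma-secretase, rose from 2.26 ± 0.174 to 6.53 ± 0.768 (SD, n = 3 each), with a log2 fold change of 1.48 (limma, adjusted p = 3.7e-05). *PSEN2*, a catalytic subunit, rose from 8.08 ± 2.03 to 12.0 ± 1.60 (SD, n = 3 each). The call of *PSEN2* was lost without control replicate 2, control replicate 3, butyrate replicate 2 or butyrate replicate 3, with log2 fold changes between 0.41 and 0.57. It was also lost without the trend (log2 fold change 0.58, limma, adjusted p = 0.0625). Others, named after their values were seen, were the proteases *ADAM10* (log2 fold change 0.41) and *ADAM17* (0.20), which rose, and the gamma-secretase subunit *PSENEN*, which fell (-0.20). The call of *ADAM17* was lost without control replicate 2, control replicate 3 or butyrate replicate 3 and with the replicate block. It was also lost with median-of-ratios scaling (log2 fold change 0.16, limma, adjusted p = 0.0591). That of *PSENEN* was lost without the trend, with rescaling to TPM and by quantile normalization (log2 fold changes -0.20, -0.07 and -0.04).

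Of 4 genes for the uptake of ligands, 1 rose and 1 fell (25.0% each, next to 32.5% and 25.9% of all genes). *MIB2* rose from 6.09 ± 0.445 to 14.1 ± 1.52 and *MIB1* fell from 12.8 ± 1.69 to 9.85 ± 0.496 (SD, n = 3 each). Both encode ubiquitin ligases of the Mind bomb kind, and the call of *MIB1* was lost when control replicate 1, control replicate 2, butyrate replicate 2 or butyrate replicate 3 was left out and with rescaling to TPM. Of 8 tested genes of receptor turnover, 1 rose and 1 fell (12.5% each, next to the same shares of all genes). *NUMB*, an inhibitor of Notch, rose from 19.3 ± 0.476 to 28.5 ± 2.15 (SD, n = 3 each). *DTX3L* fell, with a log2 fold change of -0.45. Its call was lost without control replicate 1, control replicate 2 or butyrate replicate 3 and with rescaling to TPM.

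In the nucleus, *RBPJ* was not called, with an FPKM of 20.9, 17.5 and 21.8 in control and 19.0, 22.6 and 20.7 after butyrate (log2 fold change 0.05, limma, adjusted p = 0.704). Of 8 tested activators, 1 rose and 2 fell (12.5% and 25.0%, next to 32.5% and 25.9% of all genes). *MAML3*, a Mastermind coactivator, rose from 0.228 ± 0.113 to 0.909 ± 0.246 (SD, n = 3 each), a call that was lost by quantile normalization (log2 fold change 0.94, limma, adjusted p = 0.0576). The acetyltransferases *CREBBP* and *KAT2A* fell, with log2 fold changes of -0.95 and -0.92, of which that of *CREBBP* lay between -1.58 and -0.46 over the alternatives. *MAML1* and *MAML2*, which were more abundant than *MAML3*, had log2 fold changes of 0.43 and 0.28 and were not called. Of 13 tested repressors, 2 rose and 2 fell (15.4% each, next to the same shares of all genes). *TLE2*, a Groucho-type corepressor that HES proteins recruit, had an FPKM of 0.973, 1.14 and 0.653 in control and 7.40, 7.93 and 8.77 after butyrate. The log2 fold change was 3.02 (SE 0.21), and it was the 1 gene of these lists that passed the stricter DEG rule (limma, Bonferroni-adjusted p = 0.0052). *TLE1*, named after its values were seen, rose from 7.64 to 12.6, whereas *RITA1*, which exports RBPJ from the nucleus, and *CTBP1* fell, with log2 fold changes of -0.81 and -0.77.

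**Figure D5:**
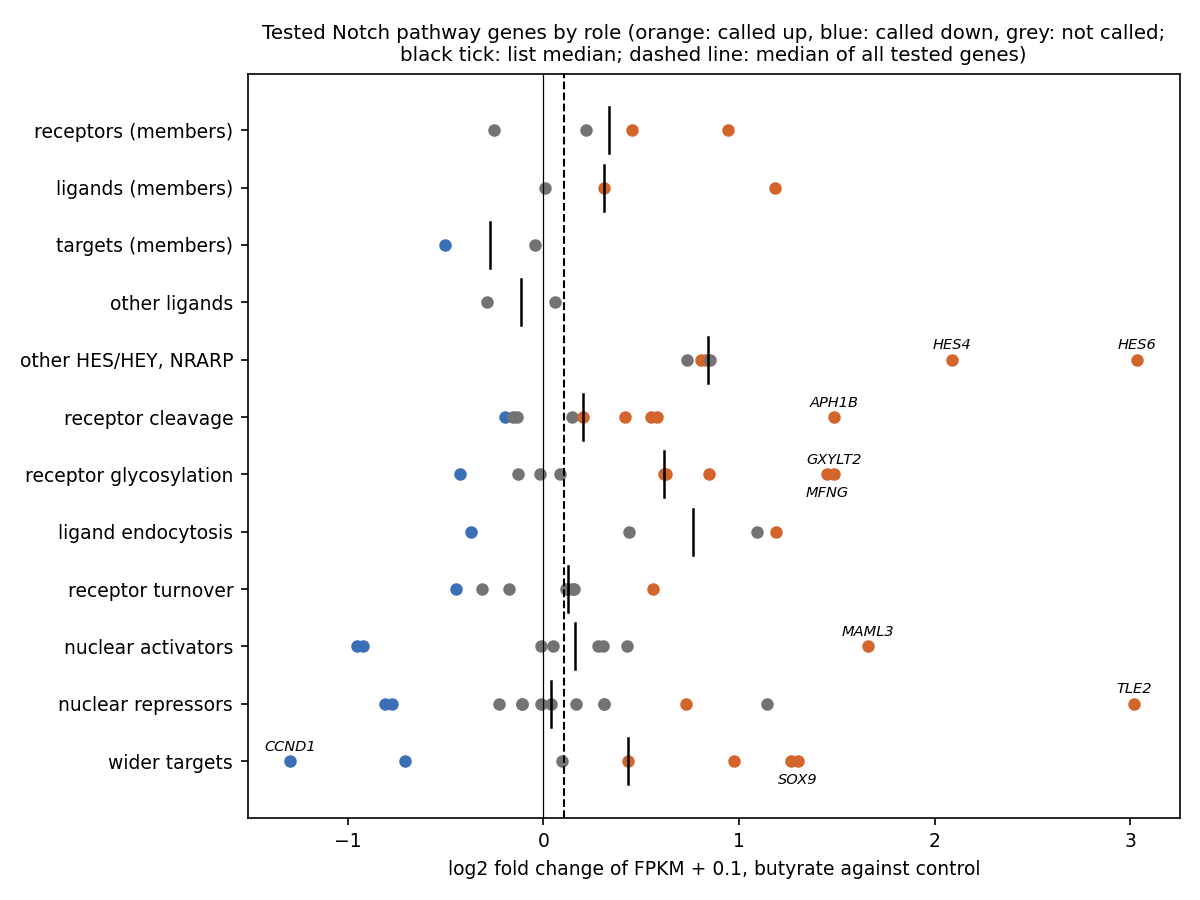
Each point is the log2 fold change of 1 tested gene, in rows by role, with calls in colour, the median of each row as a black tick and the median of all genes (0.10) as a dashed line. *TLE2* and *HES6*, both near 3, lie farthest to the right, and the row of the targets *HES1* and *HEY1* has a median of -0.27.

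Of 7 genes known as Notch targets in other settings, 4 rose (57.1%) and 2 fell (28.6%), next to 32.5% and 25.9% of all genes. *CCND1*, cyclin D1, fell from 775 ± 5.81 to 316 ± 8.48 (SD, n = 3 each), with a log2 fold change of -1.29. *SOX9* rose from 0.631 to 1.70, which did not pass by quantile normalization (limma, adjusted p = 0.063). *SNAI2*, *CDKN1A* and *MYC*, named after their values were seen, had log2 fold changes of 0.98, 0.43 and -0.71. These genes have many other regulators.

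Genes alike over the 6 cultures were sought by Pearson's r of log2(FPKM + 0.1) among the 12079 genes whose mean FPKM reached 1. Entries without a name or with only a LOC number were then left out. The remaining genes most like *JAG1* were *NXN*, *GATAD2A* and *BTBD11*, with r of 0.997, 0.994 and 0.994. Those most like *HES1* were *UBE2D2*, *ANAPC2* and *FKBP5*, with r of 0.969, 0.963 and 0.961. The mean FPKM of *UBE2D2* was 66.4 in control and 64.6 after butyrate. All points share the 2 treatment groups, and r is given as a description only.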

How the data were processed

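The members and gene lists were chosen with earlier results of these data known. Reads were trimmed with Trim Galore 0.4.1, aligned with STAR, and quantified with Cufflinks from uniquely mapped reads, and the authors deposited 1 table per culture with gene-level FPKM and its lower and upper confidence bounds. The submitters' processing notes name UMD3.1. Coordinates are those of the tables, and chromosomes were assigned by the chromosome that RefSeq (assembly ARS-UCD2.0) gives most named genes of the same sequence. No count model was used, because FPKM is a normalized unit, and the effective fragments were computed as the squared ratio of FPKM to its uncertainty. 2 genes with a failed estimate were left out. Differences were tested on log2(FPKM + 0.1), which shrinks changes of genes at low FPKM, using limma 3.58.1 (R 4.3.3) and its trend option. The fit had treatment as its only term, used all 6 cultures and was checked on simulated data. Shares were tested by exact permutation in scipy 1.17.1. The text names the 10 members, up to 3 called genes with the largest change per list, genes at 0 and markers where a result needs them. For *JAG1* and *HES1* it names the 3 most alike genes with a name other than a LOC number. Alternatives were other pseudocounts, filters, scalings, no trend, the stricter DEG rule, the replicate block, the confidence bounds and each culture left out. Of the lists, 2 genes were not analysed here. Some genes of the lists are counted but not reported here by name.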

Additional observations from a re-analysis of the deposited data

How the results depend on the processing

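The calls of *NOTCH2*, *NOTCH3*, *JAG1*, *JAG2* and *HEY1* were kept under all 15 alternatives of the fit at an adjusted p under 0.05, with log2 fold changes from 0.39 to 0.57, 0.61 to 1.06, 0.23 to 0.43, 0.86 to 1.41 and -0.55 to -0.38. With the replicate number as a block, 4 members were called up and 1 down, as without it. The numbers are not shown to pair the cultures, since deviations of same-numbered cultures correlated at 0.0228, -0.00431 and 0.00177. Among the members and the other listed genes called without the block, *NRARP*, *ADAM17* and *COL17A1* lost the call with it. Listed genes that were neither members nor called were not followed over the alternatives. By the stricter DEG rule (limma) 0 members were called up and 0 down, against 389 and 238 of all genes in place of 5144 and 4091. Quantile normalization called 2 members down, since *NOTCH4* then passed (log2 fold change -0.99, limma, adjusted p = 0.0176), and the cause was not tested. The median log2 fold change of all genes was 0.10 as deposited, 0.22 when rescaled to TPM and -0.05 by quantile normalization. Of the genes that were not called, *HES1* changed sign to 0.0797 with TPM and 0.065 by quantile normalization and, leaving out single cultures, lay between -0.126 and 0.044, and *NOTCH1* to -0.0032 by quantile normalization. With single cultures left out, *NOTCH1* lay between 0.112 (without butyrate replicate 1) and 0.344 (without butyrate replicate 2) and *NOTCH4* between -0.383 (without butyrate replicate 2) and -0.16 (without control replicate 3). *DLL1* changed sign to -0.0314 with median-of-ratios scaling and -0.358 by quantile normalization, and lay between -0.0342 and 0.0528 when single cultures were left out. The difference in the share of *NOTCH2* in the receptors, 0.0601 percentage points, was -1.05 at the lower confidence bounds and lay between -0.827 and 1.11 when single cultures were left out, and that of *DLL4* was 0 at the lower bounds. Of 64 called genes of the other lists, 18 lost the call under at least 1 alternative, and 1 changed sign, *KRT5* (0.0617 by quantile normalization). Low FPKM limits what can be said of *NOTCH4*, *DLL4* and *JAG2*.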

Other observations

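Genes of the basal and the differentiating layers of stratified epithelium, the setting in which Notch is known to act in skin, were read from separate lists. Of 7 basal genes, 4 rose (57.1%) and 2 fell (28.6%), next to 32.5% and 25.9% of all tested genes, and the median log2 fold change was 0.28. *KRT14* rose from an FPKM of 72.5 ± 2.19 to 500.0 ± 48.1 (SD, n = 3 each) and *KRT15* from 9.21 to 44.0, with log2 fold changes of 2.78 and 2.24 (limma, adjusted p = 3.2e-08 and 1.5e-06). *TP63*, which marks basal cells, rose from 8.06 to 10.5, a call (limma, adjusted p = 0.0326) that was lost under 8 alternatives, namely without control replicate 1, control replicate 3, butyrate replicate 1 or butyrate replicate 3, without the filter, without the trend, with median-of-ratios scaling and by quantile normalization. The basal genes that fell, named after their values were seen, were *KRT5*, from 401 ± 30.7 to 356 ± 8.83 (SD, n = 3 each), and *COL17A1*, from 47.7 ± 2.04 to 40.7 ± 3.53 (SD, n = 3 each). Their log2 fold changes were -0.17 and -0.23. The call of *COL17A1* was lost under 8 alternatives, and that of *KRT5* was lost under 8 and changed sign under 1 more. Of 11 genes of differentiating layers only 5 were tested, and 2 rose and 1 fell, with a median log2 fold change of 0.22. The difference between the lists was not tested. *KRT10* went from 0.492 to 1.02 and *TGM1* from 70.2 ± 2.27 to 81.6 ± 3.93 (SD, n = 3 each), while *KRT4* fell from 1.51 ± 1.30 to 0.255 ± 0.0503 (SD, n = 3 each). The calls of *KRT10* and *KRT4* were lost with single cultures left out, that of *KRT10* without control replicate 3, butyrate replicate 1 or butyrate replicate 2 and also by quantile normalization (log2 fold change 0.30 in place of 0.92, limma, adjusted p = 0.425), and that of *KRT4* without butyrate replicate 1. *FLG*, *SBSN* and *DSG1* were listed at 0 in all 6 cultures.

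Within the butyrate cultures, *NOTCH1*, *NOTCH2*, *JAG1* and *JAG2* were each highest in replicate 1 and lowest in replicate 2, an order found in 14.0% of all tested genes. *NOTCH4*, *DLL1* and *HES1* had the opposite order, found in 21.1%. The pattern was noticed after the values were seen and was not tested.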
